A study of Mus musculus with 10 samples.

Results

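The 36 genes described here are a fixed list of type I interferon response genes, taken by name and not by their values: Isg15, Isg20, Ifit1, Ifit2, Ifit3, Ifit3b, Ifitm3, Ifi27l2a, Ifi35, Ifi44, Ifih1, Irf7, Irf9, Stat2, Mx1, Mx2, Oas1a, Oas2, Oas3, Oasl1, Oasl2, Rsad2, Usp18, Cmpk2, Rtp4, Ddx58, Dhx58, Eif2ak2, Bst2, Xaf1, Parp14, Trim30a, Zbp1, Slfn5, Herc6 and Rnf213. The list was nonetheless chosen with earlier results of these data known. All 36 have a row among the 55341 genes of the bulk table. In the single-cell table of 32285 genes 34 have a row, so Mx1 and Mx2 were followed in bulk only.

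The tumours were lung tumours that formed after KP cells, a mouse lung cancer line, were injected intravenously into syngeneic mice, and the mice were treated for 11 days. SHP099 inhibits SHP2, the phosphatase encoded by Ptpn11, and SX682 inhibits the chemokine receptors CXCR1 and CXCR2. Single-cell RNA came from live cells of dissociated nodules of mice given both drugs (SHP099+SX682), SHP099 alone, SX682 alone or vehicle, with 3 hashtagged mice pooled into 1 capture per treatment. For bulk RNA, Epcam+ tumour cells were sorted, giving 3 libraries with SHP099 and 3 with vehicle. The labels give no strain, age or sex. All tumours came from 1 transplanted line. Each treatment was 1 pool, so in the single-cell data the treatment and its capture cannot be told apart.

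Type I interferons are secreted when cells sense foreign or misplaced nucleic acid, and they act through the receptor IFNAR. The receptor's kinases activate STAT2, which acts in a complex with IRF9 that binds a DNA motif, the interferon-stimulated response element, near the start of the target genes. The products block viral entry and translation, degrade or sense viral RNA, and in part (Irf7, Stat2, Irf9, Ifih1, Ddx58) feed back on the pathway, while Usp18 restrains the receptor. In tumours these genes are used as a readout of interferon signalling in immune, stromal and malignant cells, and type II interferon induces several of them too.

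The sequences below show the motif in some named members that held a match. The search used GAAANNGAAA on either strand (read as TTTCNNTTTC on the other), in windows from 250 bases before to 50 bases after the annotated start in RefSeq's GRCm38.p6. A window was found for 27 of the 36 members, and 15 of these held a match. Of 27025 genes with a window, 1079 (3.99%) held one. Because only 75.0% of members had a window, under the 80% set for such a check, the shares were not compared. Irf7, Rnf213, Isg20, Oasl1, Oasl2 and Xaf1 were among the 12 members with a window and no match, which says only that these letters are absent there. Rtp4, Ifi27l2a, Parp14 and Zbp1, also named in the results, had no window. Each stretch is 60 bases long, 5′ to 3′ on the gene's strand, with capitals marking the matches.
Isg15, chr4:156200856-156200915, minus strand: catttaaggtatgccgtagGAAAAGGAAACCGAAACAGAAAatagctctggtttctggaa
Oas1a, chr5:120907508-120907567, minus strand: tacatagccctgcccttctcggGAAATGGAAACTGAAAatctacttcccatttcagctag
Oas3, chr5:120777700-120777759, minus strand: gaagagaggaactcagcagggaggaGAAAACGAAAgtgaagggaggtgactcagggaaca
Slfn5, chr11:82951922-82951981, plus strand: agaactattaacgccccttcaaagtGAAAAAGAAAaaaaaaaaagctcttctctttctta
Ifit1, chr19:34640769-34640828, plus strand: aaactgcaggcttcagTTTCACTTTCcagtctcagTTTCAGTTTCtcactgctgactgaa
Ifit3, chr19:34583365-34583424, plus strand: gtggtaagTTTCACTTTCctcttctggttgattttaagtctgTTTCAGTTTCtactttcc
Bst2, chr8:71537565-71537624, minus strand: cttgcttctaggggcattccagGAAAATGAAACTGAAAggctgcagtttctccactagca
Isg15 held 3 overlapping matches, Oas1a and Bst2 2 overlapping matches each, and Ifit1 and Ifit3 2 separate ones. The stretch of Ifit3 recurred letter for letter upstream of its neighbour Ifit3b (chr19:34607761-34607820).

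The single-cell matrix held 44986 cells of 12 mice in 33 clusters made by the study, with a median per mouse of 1440 to 4838 transcripts (UMIs) per cell, and the bulk libraries held 51939301 to 73361005 counted reads. The medians were 1440 to 1612 with SHP099, 1532 to 1632.5 with SHP099+SX682, 2501.5 to 2731.5 with SX682 and 2824 to 4838 with vehicle. Vehicle mouse 3 had the highest, 4838. The part of this depth in the results was not tested. Clusters (C1 to C33) carry no names and were called here by fixed marker lists: C12 and C13 were monocyte-like (8 of 9 markers each), C21 tumour epithelial-like (6 of 7, led by Lypd8, Muc3 and Epcam), and C23 carried tumour epithelial and cycling markers (4 of 7 and 4 of 6). C28 to C33 were, cell for cell, the 6 states N1 to N6 of the study's neutrophil table. Of the barcode sequences, 1009 occurred in more than 1 pool and 0 in more than 1 mouse of a pool, and doublets were not removed here. Single-cell values are UMI sums per mouse and cluster in CPM (counts per 1e6 counted), and tests compared mice, not cells. A call is an adjusted p below 0.05 in edgeR's quasi-likelihood test, adjusted over all genes tested in a cluster.

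In vehicle mice the members were spread over many cell types rather than gathered in 1. Isg15, which encodes a ubiquitin-like protein attached to other proteins, averaged 698 ± 504 CPM in C32 (state N5), 530 ± 75 CPM in C33 (state N6), 348 ± 228 CPM in C30 (N3) and 285 ± 194 CPM in C21 (SD, n = 3 mice each). These 4 levels overlapped between mice, since single vehicle mice ran from 173 to 1177 CPM in C32. Irf7, the transcription factor that amplifies interferon production, averaged 113 ± 46 CPM in C21, 92.7 ± 25.0 CPM in C13 and 73.2 ± 41.2 CPM in C20, a fibroblast-like cluster, again within each other's spread. Among the 34 genes, 4 had their highest vehicle mean in C21 (Ifit1, Ifit3, Irf7 and Oasl1) and 4 each in C10, C13 and C32.

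Other members were abundant elsewhere. Ifitm3, a membrane protein that blocks viral fusion, averaged 5759 ± 244 CPM in C12 (n = 2 vehicle mice) and 5104 ± 482 CPM in C13. It was among the 10 leading genes of both, ranked by fold over all other cells. Whether it shaped the clusters was not tested. In the endothelial-like C11 it averaged 4458 ± 823 CPM. Bst2 (tetherin, which holds budding virus to the cell) averaged 1343 ± 521 CPM in C4, a cluster with markers of plasma cells and plasmacytoid dendritic cells, against 583 ± 139 CPM in C11. Ifi27l2a, a small interferon-induced protein, averaged 1376 ± 211 CPM in the T cell-like C8, against 905 ± 523 CPM in C13, with mice of both clusters overlapping. Ifi44 passed the filter on low counts in 0 clusters, and Ifit3b, Oas2 and Cmpk2 in 1 each, while Ifitm3, Ifi27l2a and Bst2 passed in 29.

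**Figure D1:**
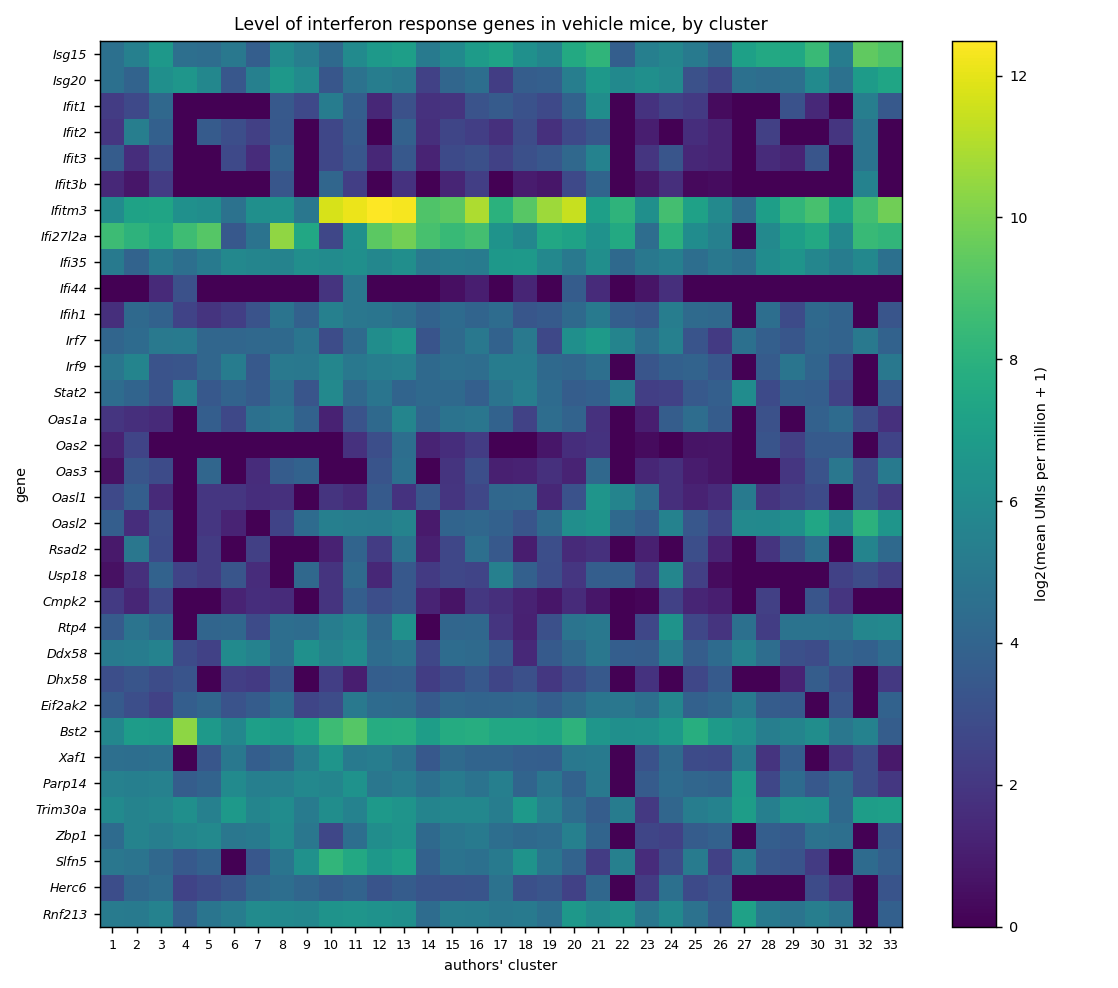
Level of the 34 members (rows) in the 33 clusters (columns) of vehicle mice, as log2 of the mean CPM plus 1, without a test. Ifitm3 is highest in the monocyte-like C12 and C13, Bst2 in C4, and Irf7, Ifit1, Ifit3 and Oasl1 in the tumour epithelial-like C21.

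The first question was whether either drug or both altered these genes, cluster by cluster. Members were tested in every cluster where they passed the filter, and each such test is counted as a pair of member and cluster. For SHP099+SX682 against vehicle, 25 of 390 pairs were higher and 8 lower, which is 8.46% called against 4% of all gene and cluster pairs (2.04% higher, 1.96% lower). For SHP099 against vehicle, 21 of 352 pairs were higher and 13 lower, 9.66% against 6.78% of all pairs (3.17% higher, 3.61% lower). For SX682 against vehicle, 3 of 408 pairs were higher and 0 lower, 0.735% against 0.391% of all pairs (0.0715% higher, 0.32% lower). The median log2 fold change of the member pairs was 0.18, 0.08 and 0.17 for the combination, SHP099 and SX682, against medians within 0.01 of 0 over all pairs. The 3 comparisons share the vehicle mice. Member calls stood in 12 of 30 clusters for the combination and in 18 of 27 for SHP099, while the 3 for SX682 all stood in C12. The clusters differed in direction, as the plot of medians by cluster shows.

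**Figure D2:**
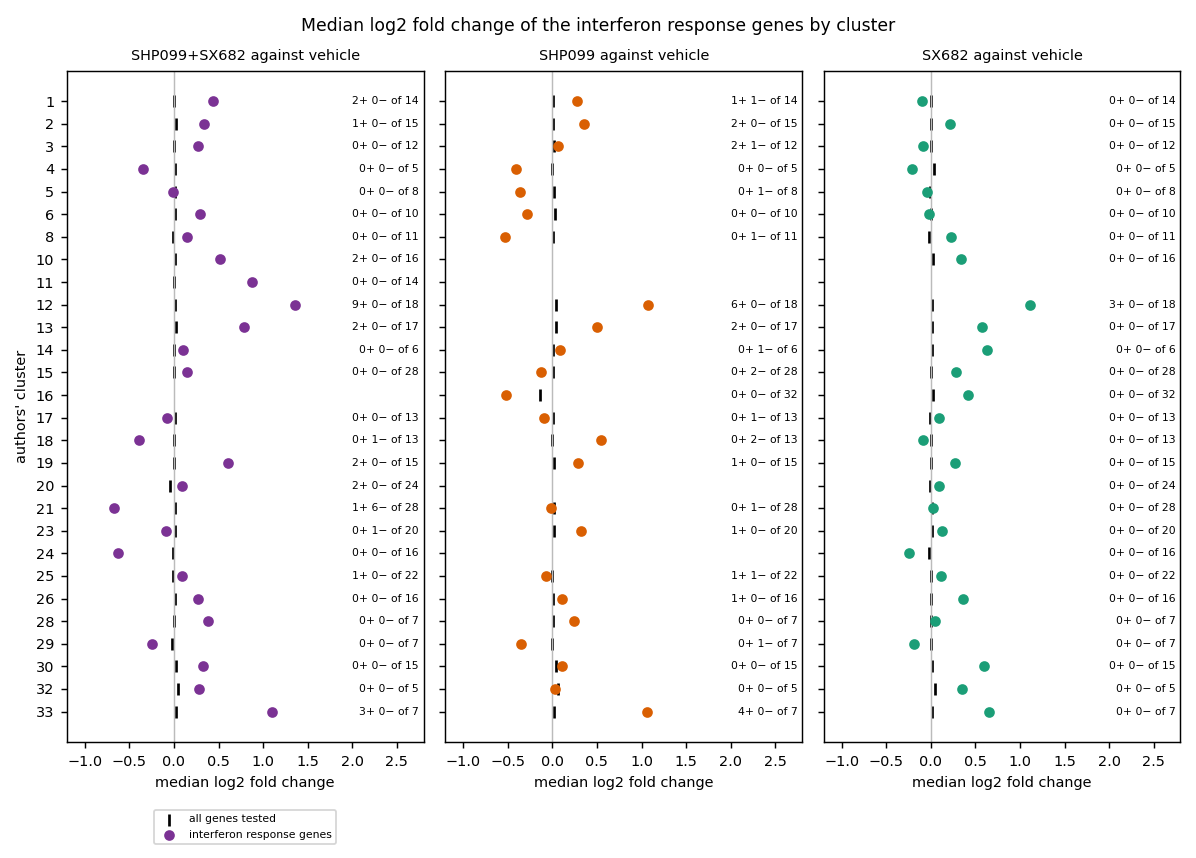
Median log2 fold change of the members that passed the filter (dots) and of all genes tested (ticks) in each cluster with at least 5 members tested, for SHP099+SX682, SHP099 and SX682 against vehicle. The numbers give members called higher and lower of those tested; in C12 the members' median was 1.36, 1.07 and 1.11, and in C21 it was -0.68, -0.02 and 0.03.

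In C12, a monocyte-like cluster, the members stood higher in all 3 treated groups than in vehicle. Of 18 members tested, 9 rose in SHP099+SX682 mice, 6 in SHP099 mice and 3 in SX682 mice, and 0 fell. Of all 2593 genes tested in C12, 4.47%, 3.47% and 1.2% were called in the same 3 comparisons. The log2 fold changes of the 18 members were positive for 18, 18 and 17 of them, with medians of 1.36, 1.07 and 1.11, against 0.02, 0.04 and 0.01 over all genes. Vehicle is represented by 2 mice here, since vehicle mouse 3 had 6 cells in C12, under the minimum of 10. Rtp4, a chaperone that interferon induces, had 162, 229 and 99.7 CPM in SHP099+SX682 mice, 161, 162 and 59.3 CPM in SHP099 mice, 190, 114 and 61.6 CPM in SX682 mice, and 14.5 and 25.0 CPM in vehicle mice. Every treated mouse was above both vehicle mice. Its log2 fold change against vehicle was 3.22 ± 0.53 for the combination (SE; adjusted p = 0.00122), 2.93 ± 0.56 for SHP099 (adjusted p = 0.00375) and 2.84 ± 0.55 for SX682 (adjusted p = 0.00981).

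Oas1a and Oas3 encode 2'-5' oligoadenylate synthetases, which make the activator of RNase L, and both were lowest in the vehicle mice of C12. Oas1a had 121, 181 and 55.4 CPM in SHP099+SX682 mice, 80.5, 140 and 138 CPM in SHP099 mice, 109, 110 and 103 CPM in SX682 mice, and 25.4 and 16.7 CPM in vehicle mice. No treated mouse overlapped the vehicle mice, and the log2 fold changes were 2.47 ± 0.49, 2.24 ± 0.53 and 2.22 ± 0.50, all called (adjusted p = 0.00508, 0.0157 and 0.0276). Oas3 had 105, 95.8 and 33.2 CPM in SHP099+SX682 mice, 59.0, 97.2 and 59.3 CPM in SHP099 mice, 40.7, 63.0 and 123 CPM in SX682 mice, and 10.9 and 8.3 CPM in vehicle mice. It rose in SHP099+SX682 mice by 2.93 ± 0.69 and in SHP099 mice by 2.71 ± 0.73 on the log2 scale (adjusted p = 0.0139 and 0.0385).

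Ifi27l2a in C12 had 2249, 2858 and 1818 CPM in SHP099+SX682 mice, 2216, 2473 and 2097 CPM in SHP099 mice, 1438.5, 1748 and 2196 CPM in SX682 mice, and 500 and 1001 CPM in vehicle mice. All treated mice were higher, with log2 fold changes of 1.71 ± 0.23, 1.67 ± 0.23 and 1.29 ± 0.23 (adjusted p = 0.000193, 0.000147 and 0.00774). Rnf213, a very large ubiquitin ligase, had 226, 287 and 188 CPM in SHP099+SX682 mice, 263, 356 and 138 CPM in SHP099 mice, 176, 193 and 144 CPM in SX682 mice, and 83.4 and 100 CPM in vehicle mice. Slfn5, a Schlafen family member, had 251, 351 and 233 CPM in SHP099+SX682 mice, 268, 313 and 218 CPM in SHP099 mice, 292, 236 and 103 CPM in SX682 mice, and 123 and 100 CPM in vehicle mice. Both rose in SHP099+SX682 mice, by 1.43 ± 0.31 and 1.31 ± 0.30 on the log2 scale (adjusted p = 0.00852 and 0.0109), and in SHP099 mice, by 1.58 ± 0.31 and 1.24 ± 0.31 (adjusted p = 0.0056 and 0.0243).

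Zbp1, Parp14 and Isg15 also passed the test in C12 for the combination alone. Zbp1, a sensor of Z-form nucleic acid, had 210, 266 and 111 CPM in SHP099+SX682 mice and 65.3 and 91.7 CPM in vehicle mice, and Parp14, an ADP-ribosyltransferase, had 121, 95.8 and 99.7 CPM against 25.4 and 41.7 CPM. Their log2 fold changes were 1.48 ± 0.38 and 1.74 ± 0.42 (adjusted p = 0.0261 and 0.0157), with no overlap between the groups. Isg15 had 283, 649 and 144 CPM in SHP099+SX682 mice, 338, 292 and 277 CPM in SHP099 mice, 217, 394 and 144 CPM in SX682 mice, and 58.0 and 175 CPM in vehicle mice. SHP099+SX682 mouse 3 and SX682 mouse 3 lay below vehicle mouse 2. Isg15 was called for the combination, at 1.97 ± 0.49 (adjusted p = 0.0197), and was at 1.64 ± 0.52 for SHP099 and 1.53 ± 0.50 for SX682 (adjusted p = 0.0773 and 0.183). That these members were called for the combination and not for a single drug does not show a difference between drugs, and against SHP099 and against SX682 the combination had 0 members called in C12 (1 each at an unadjusted p below 0.05), where 0% and 2.31% of all genes were called.

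Irf7 and Stat2 were not called in C12. Irf7 had 146, 176 and 88.7 CPM in SHP099+SX682 mice, 145, 108 and 98.9 CPM in SHP099 mice, 88.2, 181 and 82.1 CPM in SX682 mice, and 39.9 and 117 CPM in vehicle mice, with groups that overlapped. Its log2 fold changes were 1.1 ± 0.43, 0.90 ± 0.46 and 0.99 ± 0.43 (adjusted p = 0.179, 0.301 and 0.411). Stat2, the interferon-specific signal transducer, had 48.5, 53.2 and 22.2 CPM in SHP099+SX682 mice, 91.2, 86.4 and 39.6 CPM in SHP099 mice, 67.9, 47.3 and 0 CPM in SX682 mice, and 21.8 and 41.7 CPM in vehicle mice. Its groups overlapped as well (adjusted p = 0.726, 0.233 and 0.828).

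Other values moved with the groups in C12. The summed level of the 9 monocyte markers was 5076 to 6227 CPM in SHP099+SX682 mice, 5199 to 6427 CPM in SHP099 mice, 3958 to 6746 CPM in SX682 mice, and 10008 and 11432 CPM in the 2 vehicle mice. The 8 macrophage markers summed to 659 to 1306, 1182 to 1436, 1542 to 1869, and 2953 and 3232 CPM in the same order of groups, and C1qa was at 0 in SHP099 mice. The 9 neutrophil markers summed to 990 to 2236, 648 to 2079, 896 to 2205, and 146 and 744 CPM, with Cxcr2 and Retnlg at 0 in SX682 mice. Their part in the result was not tested. The cluster held 33 to 94 cells per mouse with SHP099+SX682, 19 to 60 with SHP099, 15 to 94 with SX682, and 90 and 40 in the vehicle mice.

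**Figure D3:**
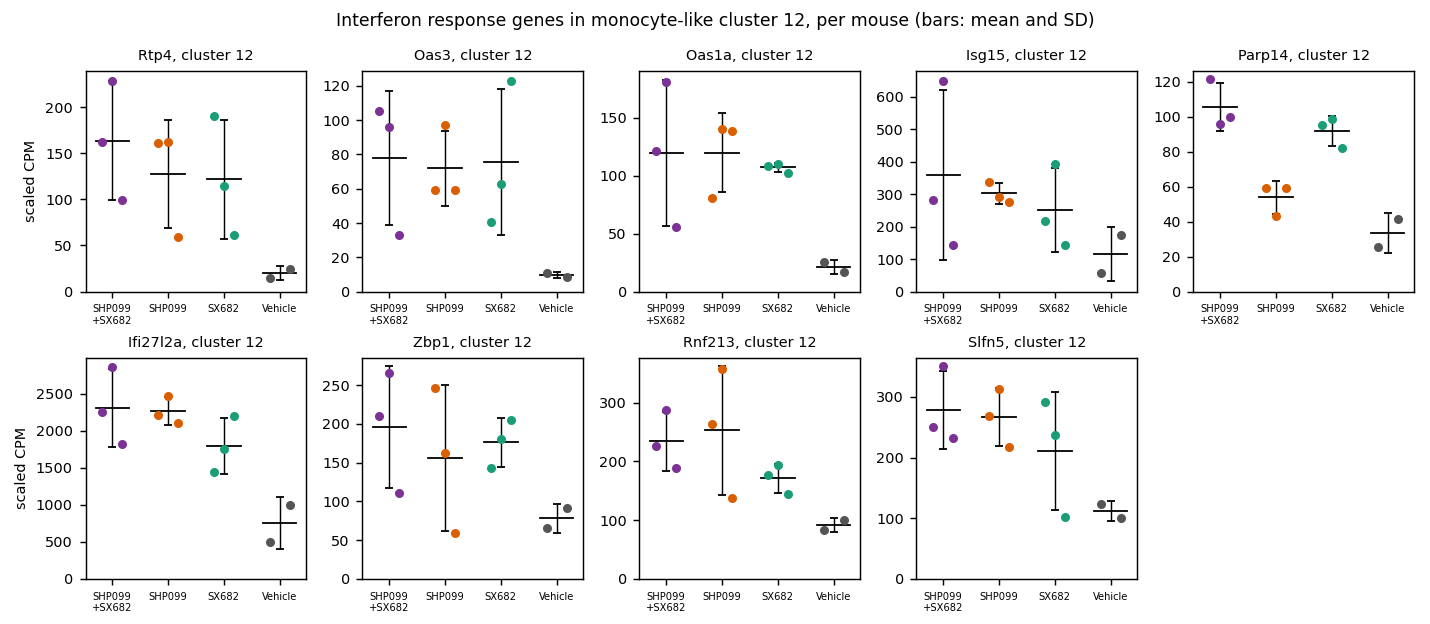
The 9 members called for SHP099+SX682 against vehicle in the monocyte-like C12, in scaled CPM: points are mice, bars mean and SD, groups from left SHP099+SX682, SHP099, SX682 (3 mice each) and vehicle (2 mice). Every treated mouse lies above both vehicle mice for Rtp4, Oas1a and Ifi27l2a, while Isg15 overlaps.

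The count in C12 varied with the vehicle mice used. With 1 vehicle mouse left, its spread is assumed to be that of the other groups. Fitted so, without vehicle mouse 1 the number of members higher was 1, 1 and 0 for the combination, SHP099 and SX682, and without vehicle mouse 2 it was 7, 3 and 2. With vehicle mouse 3 let in by a minimum of 5 cells it was 7, 4 and 0. Leaving out SHP099+SX682 mouse 2 gave 2 for the combination, and leaving out SHP099 mouse 2 gave 3 for SHP099.

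The other monocyte-like cluster, C13, had 3 vehicle mice and 17 members tested. There 2 members rose in SHP099+SX682 mice (6.1% of all genes called), 2 in SHP099 mice (6.14%) and 0 in SX682 mice (8 at an unadjusted p below 0.05; 0.279%). Median log2 fold changes of the members were 0.78, 0.51 and 0.57. Ifi27l2a had 1870.3, 2561 and 1855 CPM in SHP099+SX682 mice, 2481.5, 2208 and 1825 CPM in SHP099 mice, 847, 1392 and 1868 CPM in SX682 mice, and 547, 849 and 1635 CPM in vehicle mice. The groups given SHP099, with SX682 or alone, lay above all 3 vehicle mice. In that order, the log2 fold changes were 1.15 ± 0.29 and 1.20 ± 0.29 (adjusted p = 0.022 and 0.0166). Vehicle mouse 3 was the highest of the 3 vehicle mice for 14 of the 17 members, against 44.2% of all genes. With C12 and C13 summed per mouse, 10, 6 and 0 of 26 members were higher for the combination, SHP099 and SX682. Of all genes 5.56%, 5.94% and 0.397% were called. In the same order, Rtp4 was at 1.38 ± 0.37, 0.88 ± 0.40 and 0.88 ± 0.36 on the log2 scale (adjusted p = 0.034, 0.197 and 0.463). Oas1a was at 1.19 ± 0.32, 1.02 ± 0.33 and 0.90 ± 0.30 (adjusted p = 0.0336, 0.0725 and 0.292). Both were thus called only for the combination in the summed clusters.

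Among neutrophils, 3 of 45 pairs of member and state were higher and 0 lower for the combination (6.67% against 2.79% of all pairs), 4 higher and 1 lower for SHP099 (11.1% against 8.23%), and 0 for SX682 (6 at an unadjusted p below 0.05; 0.401%). The higher calls all stood in C33, state N6, where 7 members were tested. Isg15 there had 2124, 2732 and 641 CPM in SHP099+SX682 mice, 1655, 1355 and 1440 CPM in SHP099 mice, 1127, 1322 and 1165 CPM in SX682 mice, and 519, 695 and 666 CPM in vehicle mice. The SHP099 and SX682 mice were all above the vehicle mice, and SHP099+SX682 mouse 3 was within their range. Isg15 rose by 1.57 ± 0.31 with the combination and by 1.31 ± 0.30 with SHP099 (log2; adjusted p = 0.00289 and 0.0032), and was at 1.01 ± 0.31 with SX682 (adjusted p = 0.119).

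Rtp4 in C33 had 217, 406 and 178 CPM in SHP099+SX682 mice, 153, 143 and 111 CPM in SHP099 mice, 84.4, 144 and 0 CPM in SX682 mice, and 51.7, 44.8 and 102 CPM in vehicle mice. It rose by 2.2 ± 0.42 with the combination and by 1.31 ± 0.44 with SHP099 (log2; adjusted p = 0.00219 and 0.0349), with no overlap with vehicle in either. It was also higher with the combination than with SX682 (1.44 ± 0.40, adjusted p = 0.0477; 3.21% of all genes called). Oasl2, a ubiquitin-like relative of the Oas enzymes, had 217, 433 and 200 CPM in SHP099+SX682 mice, 257, 286 and 222 CPM in SHP099 mice, 218, 211 and 140 CPM in SX682 mice, and 133, 112 and 76.9 CPM in vehicle mice. All 9 treated mice were higher than the vehicle mice, and Oasl2 rose by 1.22 ± 0.31 and 1.07 ± 0.29 with the combination and SHP099 (adjusted p = 0.0203 and 0.0112). Ifi27l2a had 483, 839 and 410 CPM in SHP099+SX682 mice, 751, 705 and 845 CPM in SHP099 mice, 208, 719 and 419 CPM in SX682 mice, and 133, 460 and 461 CPM in vehicle mice. Only the SHP099 mice stood clear of vehicle, at 1.5 ± 0.39 (adjusted p = 0.00854).

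In C33 as a whole 4.91% of 1466 genes were called for the combination, 19.7% for SHP099 and 1.02% for SX682. The SHP099 share is the highest background among the clusters described here, so 4 of 7 members is read against it. SHP099+SX682 mouse 2 had the highest value of its group for 7 of 7 members, against 27.7% of all genes, and without it, or without vehicle mouse 1, 0 members were called for the combination. The 9 neutrophil markers summed to 112879 to 124236 CPM, 113605 to 152793, 104384 to 106825 and 138413 to 158263 CPM in SHP099+SX682, SHP099, SX682 and vehicle mice. The 7 tumour epithelial markers summed to 141 to 237, 55.7 to 89.1, 165 to 320 and 374 to 494 CPM in the same order, with Cldn4 at 0 in every group. Their part in the result was not tested.

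State N5 (C32) had the highest vehicle mean of Isg15 but few transcripts in some groups. Ifi27l2a, for 1, had 15 UMIs there over all vehicle mice and 24 over all SX682 mice. With SHP099+SX682 it had 186 and with SHP099 87. Isg15 had 1422, 1821 and 572 CPM in SHP099+SX682 mice, 1104, 1334 and 1215 CPM in SHP099 mice, 1779, 676 and 868 CPM in SX682 mice, and 1523.5, 191 and 922 CPM in vehicle mice. The vehicle mice spanned nearly the whole range of the treated ones, and the log2 fold changes were 0.28 ± 0.39, 0.18 ± 0.39 and -0.05 ± 0.45 (adjusted p = 0.812, 0.852 and 0.982). Of 5 members tested in this state 0 were called in any comparison with vehicle (1, 0 and 0 at an unadjusted p below 0.05; 0.86%, 3.15% and 0.287% of all genes called). Whether N6 and N5 differed in their response was not tested.

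In the tumour epithelial-like C21 some members fell with the combination. With SHP099+SX682, 6 of 28 members tested fell and 1 rose relative to vehicle, where 9.81% of 9161 genes were called. Of the 28 fold changes 24 were negative, with a median of -0.68 against 0.01 over all genes. Without vehicle mouse 3, 2 members fell and 1 rose, and the median was -0.14. Irf7 had 30.7, 43.5 and 41.0 CPM in SHP099+SX682 mice, 103, 72.6 and 75.3 CPM in SHP099 mice, 78.6, 107 and 109 CPM in SX682 mice, and 93.3, 83.5 and 170 CPM in vehicle mice. The 3 combination mice were the lowest of the 12. Irf7 fell by 1.58 ± 0.26 on the log2 scale against vehicle (adjusted p = 0.00101) and by 1.32 ± 0.27 against SX682 (adjusted p = 0.013). Against SHP099 it was at -1.15 ± 0.35 (adjusted p = 0.174), and the single drugs against vehicle were at -0.44 ± 0.30 for SHP099 and -0.27 ± 0.23 for SX682 (adjusted p = 0.452 and 0.836).

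Isg20, an exonuclease that degrades single-stranded RNA, had 58.2, 55.3 and 42.7 CPM in SHP099+SX682 mice, 45.6, 59.8 and 45.2 CPM in SHP099 mice, 64.4, 114 and 100 CPM in SX682 mice, and 102, 95.5 and 116 CPM in vehicle mice. Both groups given SHP099 lay below all vehicle mice. Isg20 fell by 1.01 ± 0.19 with the combination (adjusted p = 0.00282) and by 1.07 ± 0.26 with SHP099 (adjusted p = 0.0241), the 1 member called for SHP099 in C21, where 5.56% of all genes were called. For SX682 0 members were called (2 at an unadjusted p below 0.05; 0.0218% of all genes). Oasl1, which restrains translation of Irf7 in mice, had 45.0, 30.8 and 36.5 CPM in SHP099+SX682 mice, 76.1, 29.9 and 40.2 CPM in SHP099 mice, 46.1, 95.6 and 44.3 CPM in SX682 mice, and 73.8, 67.2 and 138 CPM in vehicle mice. It fell by 1.33 ± 0.32 with the combination (adjusted p = 0.0149).

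The Ifit genes, which bind viral RNA lacking the host cap modification, were low in each combination mouse and uneven elsewhere. Ifit1 had 7.68, 11.8 and 8.01 CPM in SHP099+SX682 mice, 42.6, 0 and 125 CPM in SHP099 mice, 23.6, 80.7 and 12.9 CPM in SX682 mice, and 33.3, 35.0 and 146 CPM in vehicle mice. Ifit3 had 6.59, 1.81 and 0.89 CPM in SHP099+SX682 mice, 48.7, 0 and 105 CPM in SHP099 mice, 28.4, 61.9 and 0 CPM in SX682 mice, and 29.6, 12.5 and 99.8 CPM in vehicle mice. Both fell with the combination, by 2.96 ± 0.81 and 4.03 ± 1.13 on the log2 scale (adjusted p = 0.0281 and 0.0321), without overlap with vehicle. Mice given a single drug were scattered, from below the lowest vehicle mouse to near the highest. Outside the rule for named genes, and so named after their values were seen, Xaf1, an apoptosis-related gene, fell by 1.47 ± 0.40 (adjusted p = 0.0273), and Trim30a, a tripartite motif protein, rose by 1.22 ± 0.26 (adjusted p = 0.00737), with 27.4, 32.6 and 28.5 CPM in SHP099+SX682 mice against 15.9, 10.1 and 10.7 CPM in vehicle mice.

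Isg15 and Stat2 were not called in C21. Isg15 had 164, 217 and 158 CPM in SHP099+SX682 mice, 535, 145 and 361 CPM in SHP099 mice, 262, 472 and 156 CPM in SX682 mice, and 192, 163 and 522 CPM in vehicle mice, with every group overlapping the others. The combination was at -0.71 ± 0.44 against vehicle (adjusted p = 0.341). Against SX682 the combination had 3 members lower and 0 higher in C21 (3.43% of all genes called), namely Irf7, Isg20 (-0.81 ± 0.20, adjusted p = 0.0339) and Bst2. Bst2 had 61.5, 79.8 and 43.6 CPM in SHP099+SX682 mice and 122, 346 and 109 CPM in SX682 mice, a log2 fold change of -1.66 ± 0.42 (adjusted p = 0.0373). The vehicle mice had 66.3, 69.1 and 152 CPM, so the combination mice overlapped vehicle (-0.64 ± 0.42, adjusted p = 0.369).

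Vehicle mouse 3 was the highest vehicle mouse for 25 of the 28 members in C21, against 37% of all genes. Irf7 and Isg20 were called for the combination in each of the 14 alternatives computed for them. The 7 tumour epithelial markers summed to 7356 to 7486 CPM in SHP099+SX682 mice, 7099 to 10492 in SHP099 mice, 10227 to 11587 in SX682 mice and 11874 to 14152 CPM in vehicle mice, with Cldn4 at 0 in SHP099 mice. The 9 neutrophil markers summed to 8982 to 12748, 5164 to 8952, 2948 to 7127 and 4702 to 10141 CPM in the same order. The 8 macrophage markers summed to 175 to 325, 36.3 to 66.2, 216 to 503 and 478 to 580 CPM, with C1qa, C1qc and Ms4a7 at 0 in SHP099 mice. Their part in the result was not tested. C21 held 128 to 159 cells per mouse with SHP099+SX682, 15 to 31 with SHP099, 83 to 170 with SX682 and 243 to 596 with vehicle.

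In C23, the other cluster with tumour epithelial markers, 20 members were tested. For the combination 1 member fell (8.91% of 9936 genes called), for SHP099 1 rose (13.6%) and for SX682 0 were called (1 at an unadjusted p below 0.05; 0.705%). Irf7 had 7.0, 9.68 and 9.7 CPM in SHP099+SX682 mice, 18.2, 26.8 and 22.7 CPM in SHP099 mice, 15.4, 20.7 and 30.8 CPM in SX682 mice, and 14.3, 24.6 and 29.2 CPM in vehicle mice. The combination mice were again the lowest, at -1.30 ± 0.31 against vehicle (log2; adjusted p = 0.0171), and the call was lost on leaving out mouse 1 or 2 of the combination or mouse 2 or 3 of vehicle (adjusted p of 0.0503 to 0.0794). Bst2 had 62.4, 65.0 and 70.2 CPM in SHP099+SX682 mice, 145, 139 and 192 CPM in SHP099 mice, 64.2, 131 and 167 CPM in SX682 mice, and 53.5, 73.1 and 106 CPM in vehicle mice. It rose with SHP099 by 1.05 ± 0.28 (adjusted p = 0.0235), and was lower with the combination than with SHP099 (-1.27 ± 0.30, adjusted p = 0.0476; 1.74% of all genes called). Isg15 and Stat2 were not called in C23, with adjusted p of 0.308 and 0.498 for SHP099 and 0.988 and 0.42 for the combination.

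**Figure D4:**
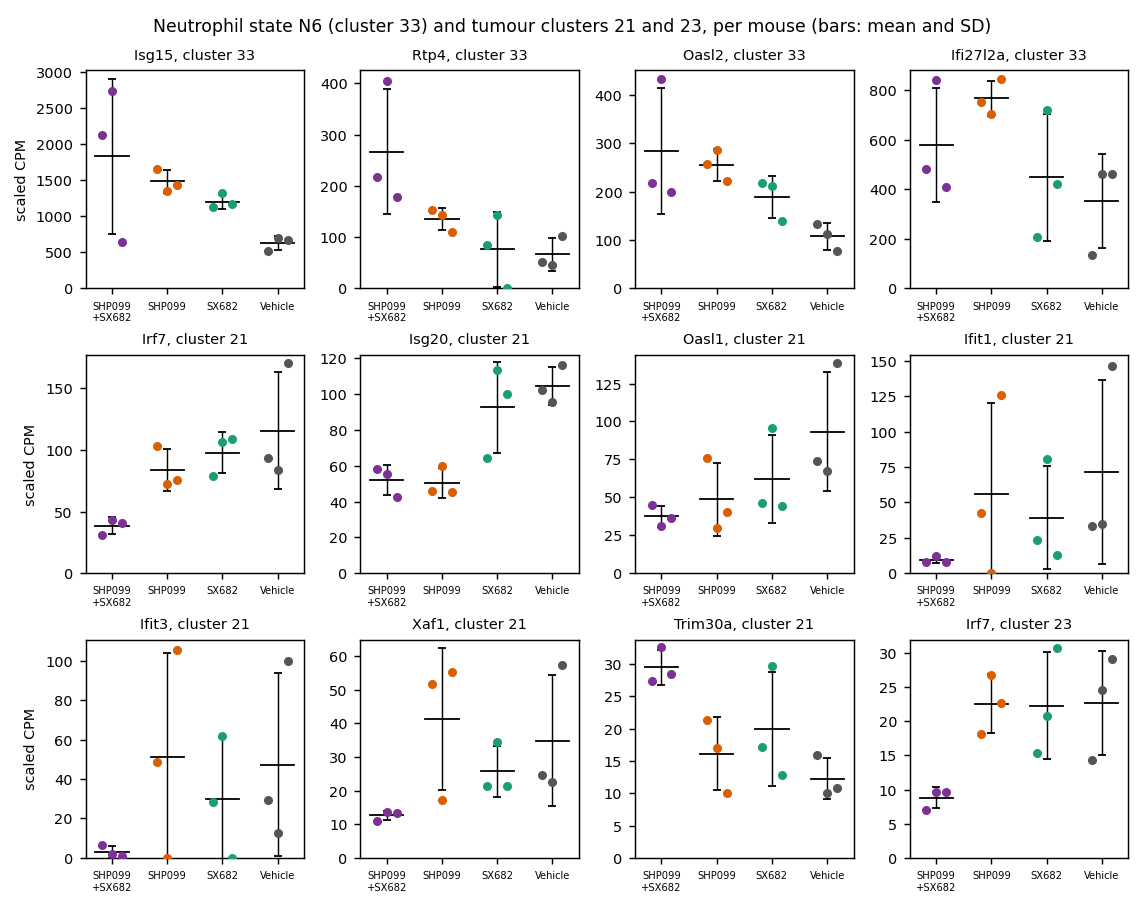
Members by mouse in C33 (neutrophil state N6), C21 and C23 (tumour epithelial markers), in scaled CPM, with mean and SD; groups from left are SHP099+SX682, SHP099, SX682 and vehicle, 3 mice each. In C33 every treated mouse is above the vehicle mice for Oasl2, while Isg15 and Rtp4 overlap in part, and in C21 and C23 Irf7 is lowest in the 3 SHP099+SX682 mice.

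Among T cells the calls were few. Of the 9 states of the study's T cell table, 6 had members tested against vehicle. There 2 of 32 pairs of member and state were higher for the combination (6.25% against 2.09% of all pairs), 1 of 32 was lower for SHP099 (3.12% against 7.35% of all pairs) and 0 were called for SX682 (5 at an unadjusted p below 0.05; 0.552%). In C3, a T cell-like cluster, 12 members were tested and 2 rose and 1 fell with SHP099 (8.07% of 3903 genes called). Irf9, the DNA-binding partner of STAT2, had 62.8, 41.2 and 43.2 CPM in SHP099 mice against 3.73, 5.27 and 18.02 CPM in vehicle mice, and rose by 2.5 ± 0.62 (log2; adjusted p = 0.0115). Rnf213 had 78.5, 110 and 130 CPM against 56.0, 42.1 and 54.1 CPM and rose by 1.08 ± 0.30 (adjusted p = 0.0239). Isg20 fell by 1.30 ± 0.36 (adjusted p = 0.0239), though vehicle mouse 2, at 36.9 CPM, lay within the SHP099 range of 26.6 to 37.8 CPM. Isg15 was not called there (-0.94 ± 0.50, adjusted p = 0.278).

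Some members were called in several clusters in 1 direction. The pairs named here, and those of Ifi27l2a, Rnf213, Bst2, Isg20 and Stat2 that follow, were chosen after their values were seen. Ifitm3 was called in 9 pairs against vehicle and was lower in all of them: 8 of 25 clusters tested with SHP099 and 1 of 28 with the combination. Over all gene and cluster pairs, 3.61% were lower and 3.17% higher with SHP099. Housekeeping genes were lower more often than that with SHP099, as given below with transcript length. With the combination 1.96% were lower and 2.04% higher. In the B cell-like C1 it had 27.8, 27.1 and 35.2 CPM in SHP099 mice and 76.6, 58.5 and 66.1 CPM in vehicle mice (log2 -1.21 ± 0.24, adjusted p = 0.00377), and in the macrophage-like C25 43.1, 38.3 and 35.6 CPM against 150, 134 and 124 CPM (-1.80 ± 0.30, adjusted p = 0.00134). In the cDC1-like C18 it fell with SHP099 by 1.42 ± 0.26 and with the combination by 1.15 ± 0.25 (adjusted p = 0.00365 and 0.0295). In C1 the combination differed from SHP099: Ifitm3 had 144, 96.2 and 95.7 CPM in SHP099+SX682 mice, all above the SHP099 mice, at 1.90 ± 0.22 (adjusted p = 0.000175). The direction was not particular to C1. Ifitm3 was above SHP099 with the combination in 23 of 24 clusters tested (median log2 fold change 0.59), though called only in C1.

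Ifi27l2a, unlike Ifitm3, was mostly called higher. It rose in 6 of 28 clusters tested with the combination and in 4 of 25 with SHP099, and fell in 1 with SHP099. In the T cell-like C2 it had 408, 454 and 423 CPM in SHP099+SX682 mice, 407, 426 and 381 CPM in SHP099 mice and 221, 302 and 348 CPM in vehicle mice, at 0.66 ± 0.17 and 0.57 ± 0.17 (log2; adjusted p = 0.0383 and 0.0336). In T cell state T6, led by Foxp3 and with Ifi27l2a itself among its leading genes, it had 3032, 3217.5 and 3182 CPM in SHP099+SX682 mice, 1638, 2049 and 2068 CPM in SHP099 mice and 2268, 1965.5 and 2341 CPM in vehicle mice. The combination mice were the highest there, at 0.52 ± 0.14 against vehicle and 0.72 ± 0.15 against SHP099 (adjusted p = 0.0406 and 0.0225). In C18 it had 0, 21.03 and 4.65 CPM in SHP099 mice against 66.5, 65.1 and 47.6 CPM in vehicle mice (-2.53 ± 0.67, adjusted p = 0.0429). The combination was not lower there, at 0.60 ± 0.38 against vehicle (adjusted p = 0.588).

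Rnf213 rose in 5 of 19 clusters tested with SHP099 and in 2 of 22 with the combination, among them C1. There it had 71.0, 62.8 and 89.8 CPM in SHP099+SX682 mice, 81.1, 88.1 and 59.98 CPM in SHP099 mice and 34.05, 38.1 and 39.6 CPM in vehicle mice. Both groups lay above vehicle, at 0.99 ± 0.24 and 1.08 ± 0.23 (log2; adjusted p = 0.0207 and 0.00622). Bst2 rose in 3 of 25 clusters tested with SHP099 and in 3 of 28 with the combination. Isg20 fell in 3 clusters with SHP099 (C3, C8 and C21) and in 1 with the combination, and rose in 0 of the 12 and 13 clusters where it was tested. In the fibroblast-like C20, which had under 2 SHP099 mice with enough cells, Stat2 had 65.9, 40.5 and 23.2 CPM in SHP099+SX682 mice against 12.9, 12.6 and 13.2 CPM in vehicle mice (1.83 ± 0.46, adjusted p = 0.0493). Its mean there, 4.51 log2 CPM, was low. Members of C20 went both ways with the combination. Ifi27l2a was called higher (1.26 ± 0.28, adjusted p = 0.0334). Irf7 and Isg15 were at -1.76 ± 0.71 and -1.44 ± 0.76, not called (adjusted p = 0.201 and 0.337).

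The SHP099 fold changes differed between classes of transcript length, though not in the order of length. Over all genes and clusters, the median log2 fold change of SHP099 against vehicle was 0.11 for genes with over 5000 exonic bases, -0.08 for those in between and 0.02 for those under 1000. Member pairs of the long class (Rnf213 has 16888 exonic bases) were called higher in 9 and lower in 0 cases, the middle class 4 and 4, and the short class (Ifitm3 has 678, Isg15 756) 8 and 9. These counts are not set against the pairs tested or the share of all genes called in each class. They therefore do not show a difference between the classes. Of 198 pairs of housekeeping gene and cluster, 9 were higher and 62 lower with SHP099, and Rplp0 was lower in 23 clusters. Ifitm3, lower in 8 of 25 clusters with SHP099, is to be read beside these. Whether its fall differed from theirs was not tested. The part of length in these results was not tested. In C12 the members' medians for SHP099 were 1.24, 0.90 and 1.25 for long, middle and short genes.

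Set against the single drugs, the combination showed few differences in the members. Against SHP099, 1 of 320 pairs was higher and 1 lower (0.625% against 0.545% of all pairs). Against SX682, 6 of 376 were higher and 7 lower (3.46% against 3.95% of all pairs). These shares are near the background, and the pairs are the ones named above together with Ifitm3 in C1, C5, C14 and C15, Ifi27l2a in C3, C19 and C28, Rsad2 in C30 and Ifi35 in C26.

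Other genes of the pathway were followed by lists. The interferon genes and their receptors gave 0 higher and 2 lower of 122 pairs with the combination (1.64% against 4% of all pairs) and 3 higher and 2 lower of 113 with SHP099 (4.42% against 6.78%). Ifng, the type II interferon, fell in the NK cell-like C6, with 36.2 ± 11.1 CPM in SHP099+SX682 mice, 52.2 ± 29.6 in SHP099 mice and 123 ± 52.4 CPM in vehicle mice (SD, n = 3 each; adjusted p = 0.0058 and 0.0393). The relay from the receptor, counted without the members that belong to it, gave 8 higher and 0 lower of 224 pairs with the combination (3.57% against the 4% background). With SHP099 it gave 13 and 0 of 209 (6.22% against 6.78%). All these calls were higher, where 2.04% of all pairs were higher and 1.96% lower with the combination. With SHP099 3.17% of all pairs were higher and 3.61% lower. Genes of nucleic acid sensing gave 0 higher and 3 lower of 117 pairs with the combination (2.56% against 4%), all 3 of them Irf5. With SHP099 they gave 3 and 1 of 120 (3.33% against 6.78%).

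The remaining interferon response genes outside the 36 gave 30 higher and 13 lower of 808 pairs with the combination (5.32% against 4% of all pairs) and 26 and 48 of 770 with SHP099 (9.61% against 6.78%). Ly6e, a membrane protein that restricts coronaviruses, fell in 16 clusters with SHP099, and Ifitm2, a relative of Ifitm3, in 8. Slfn4, a Schlafen gene of myeloid cells, rose in 4 clusters with the combination, among them C21, with 43.2 ± 10.9 CPM in SHP099+SX682 mice against 10.1 ± 1.48 CPM in vehicle mice (2.08 ± 0.26, adjusted p = 0.000186). Genes of the type II response, several of which type I interferon induces too, gave 30 higher and 2 lower of 331 pairs with the combination (9.67% against 4% of all pairs), 10 and 6 of 295 with SHP099 (5.42% against 6.78%) and 3 and 0 of 335 with SX682 (0.896% against 0.391%). Gbp2, a guanylate-binding GTPase, rose in 5 clusters with the combination. In C12 it averaged 249 ± 193 CPM in SHP099+SX682 mice, 204 ± 128 in SX682 mice and 28.1 ± 19.2 CPM in vehicle mice, at 3.52 ± 0.63 and 2.81 ± 0.68 (adjusted p = 0.00193 and 0.0403).

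In the bulk libraries of sorted Epcam+ cells, 0 of the 36 members were called for SHP099 against vehicle by edgeR, and 0 had an unadjusted p below 0.05. Of all 20314 genes tested 0.113% were called. DESeq2 called 0 members too. The members' median log2 fold change was 0.19, against -0.001 over all genes, and 24 of 36 were positive. The sign of this median depended on single libraries. It was -0.17 without SHP099 library 1 and -0.03 without vehicle library 3. Leaving out any other library kept it above 0, up to 0.42 without SHP099 library 3. Isg15 had 16.04, 11.4 and 6.95 CPM in SHP099 libraries and 13.3, 14.8 and 7.6 CPM in vehicle libraries (log2 -0.06 ± 0.36), and Irf7 had 114, 110 and 51.0 CPM against 82.8, 122 and 99.0 CPM (-0.14 ± 0.30). Stat2 had 68.4, 39.9 and 30.05 CPM against 36.5, 37.2 and 30.9 CPM (0.40 ± 0.28), and Ifit3 27.7, 12.7 and 8.56 CPM against 20.3, 21.2 and 11.1 CPM (-0.10 ± 0.44). In each of these the groups overlapped. Mx1, the dynamin-like antiviral GTPase measured in bulk alone, had 0.807, 0.980 and 0.737 CPM in SHP099 libraries and 1.17, 1.42 and 1.45 CPM in vehicle libraries. These groups did not overlap, and the difference was not called (-0.68 ± 0.31, adjusted p = 0.598). Mx2, annotated as a polymorphic pseudogene, had 3.70, 2.71 and 1.5 CPM against 2.5, 2.29 and 1.79 CPM.

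Within each group the bulk libraries ranked alike over most members. In unscaled CPM, SHP099 library 1 was the highest of its group for 29 of 36 members and library 3 the lowest for 34, against 34.5% and 41.9% of all genes. In vehicle, library 2 was the highest for 29 and library 3 the lowest for 31, against 32.7% and 34.6% of all genes. Zbp1 showed the widest steps of those named, with 18.2, 6.26 and 2.59 CPM in SHP099 libraries and 6.85, 10.1 and 2.49 CPM in vehicle libraries. The 9 endothelial markers summed to 2986, 1752 and 736 CPM in SHP099 libraries 1 to 3 and to 1557, 2142 and 1387 CPM in vehicle libraries 1 to 3, so the highest and the lowest library of each group were the same as for most members. The 7 plasmacytoid dendritic cell markers summed to 265, 192 and 130 CPM and to 168, 195 and 134 CPM, with the same highest and lowest libraries. The 9 monocyte markers summed to 1738 to 1846 CPM with SHP099 and 2673 to 3530 CPM with vehicle, the 8 macrophage markers to 250 to 402 against 580 to 608 CPM, and the 7 tumour epithelial markers to 9461 to 11797 against 11800 to 13512 CPM. Their part in the result was not tested. In bulk RNA, fewer cells of a type and less RNA per cell cannot be told apart.

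**Figure D5:**
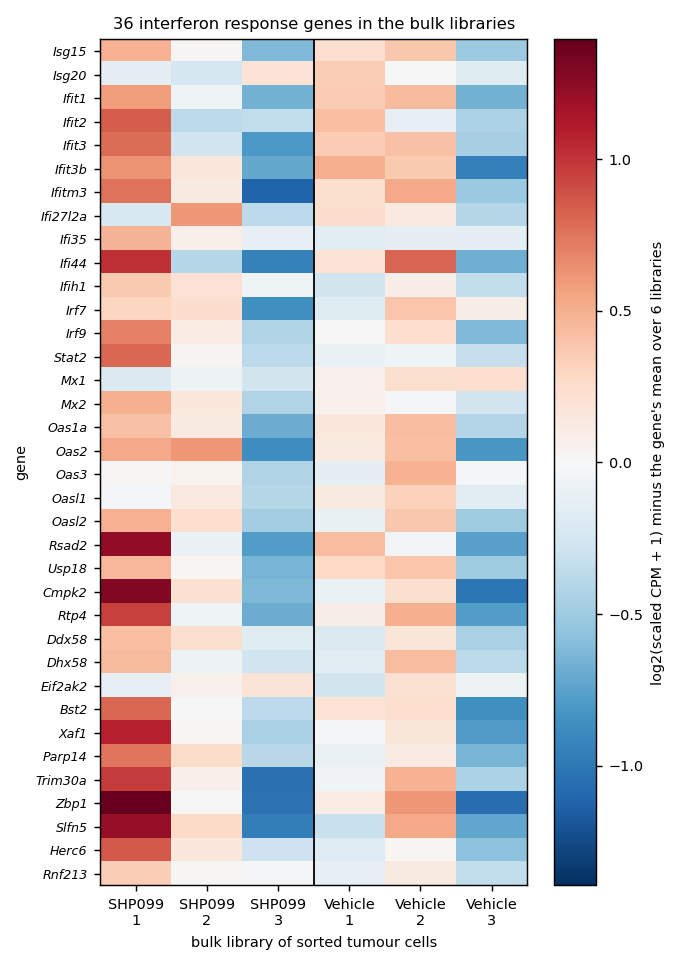
The 36 members (rows) in the 3 SHP099 and 3 vehicle libraries of sorted Epcam+ cells (columns, SHP099 at left), as log2 of scaled CPM plus 1, minus the gene's mean over the 6 libraries. SHP099 library 1 is the highest of its group for 29 members; in vehicle, library 2 is the highest for 29 and library 3 the lowest for 31.

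Single mice likewise carried much of the spread in the single-cell data. Among clusters with at least 5 members tested and 3 mice in the group, SHP099+SX682 mouse 2 was the highest of its group for most members in 17 of 27 clusters, SX682 mouse 2 in 16 of 24 and vehicle mouse 3 in 16 of 26. In SHP099 the 3 mice led in 2, 8 and 6 of 23 clusters. These mice stood high over clusters of unlike cell types, so clusters are not independent observations of a treatment.

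Several members share sequence with near-identical genes, and how reads of the copies were assigned is not given in the sources used here. Of the 31-base words in its transcripts, Oas1a shared 68.7% with Oas1g, Ifit3 61.8% with Ifit3b, Ifitm3 20.5% with other genes, and Isg15 12.8%. Their counts are uncertain to that degree. The bulk reads were counted without strand, so exons that overlap a gene on the other strand cannot be told apart from it: 1476 bases of Rnf213 (with A930037H05Rik), 559 of Slfn5 (with Slfn5os) and 45 of Irf7 (with Phrf1). By the GENCODE annotation of GRCm38, Irf7 is at chr7:141262706-141266481, Isg15 at chr4:156199424-156200818, Rtp4 at chr16:23520291-23614222 and Ifi27l2a at chr12:103442167-103443680, and no chromosome holds more than 5 of the 36.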

How the data were processed

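Bulk values are raw read counts per gene, deposited by the authors without normalization; STAR, Picard and HTSeq on mm10 are named in the submitters' processing notes, and counting was without strand per the file labels. Single-cell values are UMI counts, neither scaled nor filtered here, as deposited by the authors, with Cell Ranger named in the same notes, with each cell's cluster and mouse in other deposited columns. The labels do not say that hashtag or library numbers pair samples.

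UMIs were summed per mouse and cluster, for mice with at least 10 cells and clusters with at least 2 such mice per treatment. Each cluster was fitted once over the 4 treatments with edgeR 4.0.16 under R 4.3.3 (filterByExpr, TMM scaling, two-sided quasi-likelihood F test, Benjamini-Hochberg adjustment over all genes tested in the cluster, call below 0.05). Printed mouse values in tests are CPM on TMM-scaled sums, and vehicle levels by cluster and marker sums are unscaled CPM, as are the counts of members for which a mouse or library ranked highest or lowest. P-values measure the spread between mice or libraries. The fits were checked on simulated data. Alternatives were DESeq2 1.42.0, its size factors, other filters and cell minimums, treatment pairs fitted alone, the replicate number as a block, adjustment over all classes and leaving out each mouse; a minimum of 5 cells and the sum of clusters 12 and 13 were added after the data were seen.

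The members and lists were chosen with earlier results of these data known. The genes named with values were, per cluster described, the members called with groups that do not overlap and a mean of at least 5 log2 CPM (3 in bulk), up to 10 each way, plus Isg15, Irf7, Ifit3 and Stat2 where tested. Clusters described singly were the 3 with most members called per comparison, the tumour clusters and state N5. Promoter sequences are from RefSeq.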

Additional observations from a re-analysis of the deposited data

Results flagged for a closer look

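Ifi27l2a moved in opposite directions in 2 cell types under the same contrast. With SHP099 every mouse was above both vehicle mice in the monocyte-like C12 (log2 fold change 1.67), and every mouse was below all 3 vehicle mice in the cDC1-like C18 (-2.53). The log2 fold changes differed by 4.20, and that difference was not tested. C18 held few transcripts of the gene, at 0 to 21.03 CPM in SHP099 mice against 47.6 to 66.5 CPM in vehicle mice. These were 5 UMIs over all SHP099 mice and 136 over all vehicle mice. The fall was absent in C18 with SHP099+SX682, at 0.60 ± 0.38 against vehicle (adjusted p = 0.588). Against SHP099 the combination was at 3.13 ± 0.70 without overlap, not called (adjusted p = 0.314).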

How the results depend on the processing

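Counts below are pairs of member and cluster or state called, in both directions. The 34 pairs of SHP099 against vehicle were 20 with DESeq2 and 53 without a filter on low counts, and the 33 of the combination were 62 without a filter. The 3 of SX682 were 0 with at least 5 cells, 23 without a filter and 6 with the replicate block. The combination against SHP099 (2) gave 6 with DESeq2, 29 without a filter, 8 fitted as a pair and 4 with the replicate block, and against SX682 (13) 8 with at least 30 cells and 39 without a filter. In neutrophil states SHP099 (5) gave 3 with DESeq2; the combination (3) gave 1 with DESeq2, 5 with at least 30 cells and 6 without a filter; and SX682 (0) gave 1 without a filter and 1 as a pair. In T cell states SHP099 (1) gave 0 with DESeq2, 2 with at least 5 cells, 5 without a filter, 2 as a pair and 3 with the replicate block, and the combination (2) gave 1 with at least 30 cells. Without a filter more genes were tested. For the other shifts the cause was not tested.

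Leaving out 1 mouse at a time gave 11 to 28 for SHP099, 7 to 30 for the combination, 1 to 8 for SX682, 1 to 3 for the combination against SHP099 and 3 to 15 against SX682. In neutrophil states it gave 3 to 5, 0 to 5 and 0 to 1 for SHP099, the combination and SX682, in T cell states 0 to 4, 0 to 2 and 0 to 0, and in bulk 0 to 0. Deviations of same-numbered samples correlated at -0.05 to 0.07 in bulk and -0.11 to 0.40 over all cells, against -0.22 to 0.20 and -0.37 to 0.16 for other numbers. Not every pair was over 0.1, nor did every sample correlate best with its own number, so the numbers were not taken as pairs. With the replicate block the counts were 40 for SHP099, 37 for the combination and 0 in bulk. No called result changed sign. Depth limits the members: Ifi44 could be tested in 0 clusters and 3 others in 1 each.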
